A study of Rattus norvegicus with 6 samples.

Results

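The calcitonin receptor family of the rat brain was followed here through 8 genes: the receptors Calcr and Calcrl, their accessory proteins Ramp1, Ramp2 and Ramp3, and the peptide genes Adm, Calca and Calcb. They were found by matching the RefSeq transcript that each array probe is named for, which gave 10 of 30367 probes and 8 of 15443 genes. The family was selected on measured values, the lower Calcr level after intracerebral hemorrhage (ICH) on these arrays, so the Calcr difference is described and carries no test. The other 7 genes were added as its relatives, from the same comparison.

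Total RNA came from brain tissue of rats with ICH, a bleed into the brain (3 arrays, tissue the labels call peripheral, from around the hematoma per the series title), and from brain tissue of sham-operated rats (3 arrays). All samples carry the age label day 1. Strain, the way the bleed was made, the dissected region and any pooling of animals are not given in the sources used here, and the design text speaks of transfected replicates where the sample labels speak of ICH. Arrays of a group are described as biological replicates in the labels, and whether each stands for 1 animal is not said.

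Receptors of this family couple mainly to the stimulatory G protein and raise cAMP. The calcitonin receptor binds calcitonin by itself and, joined to a receptor activity-modifying protein (RAMP), also amylin. The calcitonin receptor-like receptor needs a RAMP to reach the cell surface: with RAMP1 it binds calcitonin gene-related peptide (CGRP), and with RAMP2 or RAMP3 it binds adrenomedullin. CGRP and adrenomedullin are strong dilators of blood vessels, brain vessels among them. Calcitonin receptors of the brain are known chiefly from the hypothalamus, the brainstem and the nucleus accumbens.

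Upstream sequences of Calcr, Ramp1 and Adm, which the results below return to, are shown first out of 6 at hand, as the 250 bases before the RefSeq start in the build GRCr8, read 5' to 3' on the strand of the gene. Those of Calcr (chr4:32691076-32691325, minus strand) and Ramp1 (chr9:99212866-99213115, plus strand) belong to the members lower on every ICH array. That of Adm (chr1:174179950-174180199, plus strand) belongs to a peptide gene that was high on 2 of them. Capitals mark TGACG, a half-site of the cAMP response element, in Calcr, and GCGTG, a core bound by hypoxia-inducible factors (HIF), in Ramp1. In Adm they mark the TATA-like run TATAAG, which was read on both strands in overlap.
Calcr: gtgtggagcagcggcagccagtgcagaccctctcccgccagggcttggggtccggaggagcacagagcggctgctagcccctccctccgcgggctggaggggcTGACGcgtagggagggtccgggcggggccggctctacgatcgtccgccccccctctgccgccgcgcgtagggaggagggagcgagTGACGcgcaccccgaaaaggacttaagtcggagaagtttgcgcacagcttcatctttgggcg
Ramp1: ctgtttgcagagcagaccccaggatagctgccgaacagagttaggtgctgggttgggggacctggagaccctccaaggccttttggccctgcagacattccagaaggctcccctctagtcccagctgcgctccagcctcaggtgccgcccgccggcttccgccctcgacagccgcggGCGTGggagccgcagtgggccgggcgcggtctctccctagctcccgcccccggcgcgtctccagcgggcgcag
Adm: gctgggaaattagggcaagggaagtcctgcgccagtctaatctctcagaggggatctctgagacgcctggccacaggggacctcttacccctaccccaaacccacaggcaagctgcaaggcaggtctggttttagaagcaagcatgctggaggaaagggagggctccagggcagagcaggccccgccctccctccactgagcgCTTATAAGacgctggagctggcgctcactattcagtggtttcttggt

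Both strands were searched. The HIF core was taken as GCGTG and, in its other spelling, as ACGTG. For the TATA-like run both TATAAG and the other spelling, TATAAA, were counted. The cAMP element half-site TGACG occurred 2 times in Calcr, beginning 147 and 62 bases before the start, and 1 time in Calca, 112 bases before it. GCGTG occurred 1 time each in Ramp1, 73 bases before the start, and in Ramp3, 66 bases before it. The Adm window held 0 HIF cores in either spelling. Of 33469 rat promoters, 18.2% held TGACG at least 1 time, 36.7% a HIF core and 18% a TATA-like run in the same window. A single match of any of these is thus not rare. How many promoters held TGACG 2 times, as Calcr did, was not counted. The Calcr window was 70% G and C, as was that of Ramp1, where the median promoter had 51.2%. No sequence was at hand for Ramp2, whose groups did not overlap, and for Calcb. Calca and Calcb, on chromosome 1, are neighbours with 0 genes between them in the RefSeq table.

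The arrays were of like quality. Of 58717 spots other than controls, 81.8% to 85.4% were well above background on ICH arrays and 83.4% to 84.1% on sham arrays, and 0 were saturated. Correlations across genes ran from 0.949 to 0.980 within ICH and from 0.985 to 0.991 within sham. Between the groups they ran from 0.947 to 0.986, so ICH arrays were no more alike among themselves than to sham arrays. Probes of the brain markers Snap25, Map2, Gfap, Aqp4, Mbp and Cx3cr1 were measured, and Rbfox3 had no matched probe. Levels below are log2 signals with the 75th percentile of the array at 0, so they rank arrays for 1 probe and say nothing about which gene is more abundant. Differences are ICH minus sham on the same log2 scale, from limma, ± SE with n = 3 arrays per group. Centring on spike-in probes instead placed the median of all rows at 0.39, against -0.04 here, and list medians that change sign with it are marked. In tissue RNA, fewer cells of a type and less RNA per cell cannot be told apart.

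Calcr, the calcitonin receptor gene, was lower on all ICH arrays. Its level was -4.34, -4.58 and -2.56 on ICH 1 to 3, against -2.06, -1.91 and -2.09 on sham 1 to 3. The sham arrays lay within a narrow band (SD 0.10), ICH 1 and ICH 2 lay far below it, and ICH 3 lay below it by 0.47. The mean difference was -1.81 ± 0.53, which is 3.50-fold lower in ICH, and it was seen with a single probe. In signal units the probe read 321, 278 and 1135 on the ICH arrays and 1424, 1614 and 1349 on the sham arrays, well above background on all 6. Without ICH 3 the difference was -2.44, and without ICH 2 it was -1.43. These values chose the family and support nothing further.

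**Figure D1:**
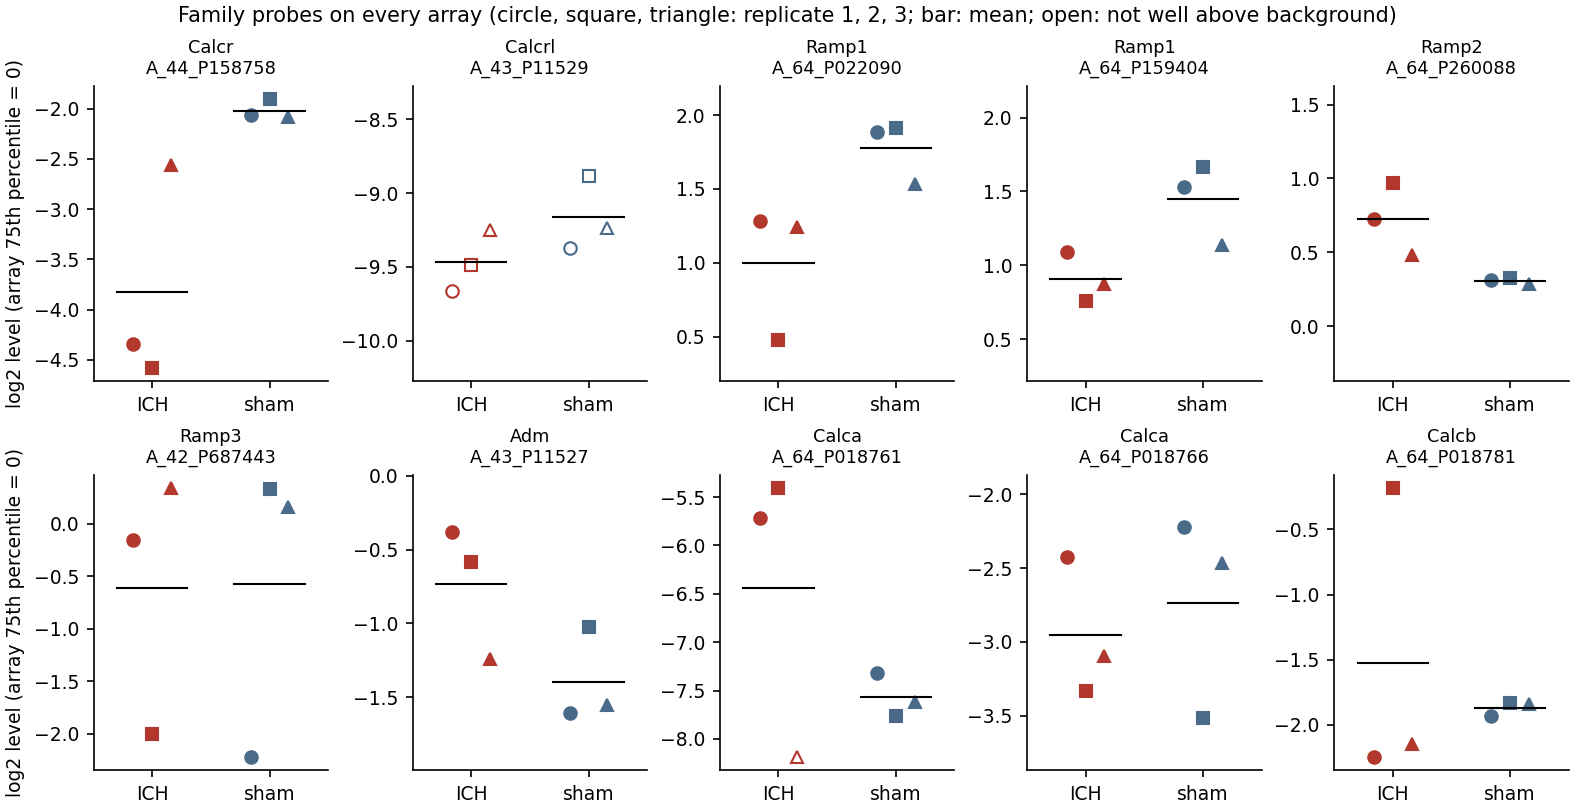
Log2 level of each of the 10 family probes on every array, with ICH left of sham in each panel; the bars are group means, panels have their own axes, and open symbols mark arrays where the probe was not well above background. Calcr and both Ramp1 probes are lower on all ICH arrays, Ramp2 is higher on all of them, and single arrays stand apart for Ramp3 and Calcb.

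Calcrl, the receptor that RAMPs carry to the surface for CGRP and adrenomedullin, gave no usable value. Its only probe was not well above background on any of the 6 arrays, with signals of 8 to 11 in ICH and 9 to 13 in sham. It has therefore no difference, which leaves 7 measured genes, 6 of them tested, as Calcr carries no test.

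Among these 7 genes, 2 had all ICH arrays below all sham arrays, Calcr and Ramp1, where 16.5% of all 22179 rows did so, and 1 had all ICH arrays above, Ramp2, where 11.0% did. Together 3 of 7 did not overlap, where 27.5% of rows did not. Across the whole table limma called 0 rows at an adjusted p under 0.05 (0%), and 3263 rows (14.7%) had an unadjusted p under 0.05. Of the 6 measured genes other than Calcr, 0 were called and 2, Ramp1 and Ramp2, had an unadjusted p under 0.05. As the comparison is the one that picked the family, these counts are given as a description.

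Ramp1, which makes the CGRP receptor together with Calcrl and an amylin receptor together with Calcr, was lower on ICH arrays with both of its probes. The brighter probe stood at 1.28, 0.48 and 1.24 on ICH 1 to 3, against 1.88, 1.92 and 1.53 on sham 1 to 3. The groups did not overlap, ICH 2 was the lowest array and sham 3 the lowest of its group. The difference was -0.78 ± 0.26, or 1.71-fold lower in ICH, with an adjusted p of 0.304 in limma. The other probe, a single spot per array, read 1.09, 0.76 and 0.88 in ICH and 1.53, 1.67 and 1.14 in sham, a difference of -0.54 with a gap of only 0.05 between the groups. Without ICH 2 the difference of the brighter probe was -0.52.

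Markers of striatal projection neurons followed a similar order of arrays. All 10 of the listed genes were measured, and 10 of 10 were lower in ICH, 6 of them without overlap, beside 16.5% of all rows, and none called. Relative to the sham mean, the list's median was -0.78, -1.48 and -0.996 on ICH 1 to 3 and 0.32, 0.36 and -0.67 on sham 1 to 3. Ramp1 on the same scale was at -0.50, -1.30 and -0.54 in ICH and at 0.11, 0.14 and -0.24 in sham. The list's summed signal, in units of the array's 75th percentile, was 9.51 to 14.7 in ICH and 16.4 to 30.9 in sham. Of its members, the dopamine receptor gene Drd1 differed by -1.76 ± 0.56 (adjusted p = 0.302 in limma). A similar order of arrays was not particular to striatal markers. Pecam1, a gene of endothelium, stood at -0.35, -1.02 and -0.36 on ICH 1 to 3 and at 0.10, 0.03 and -0.13 on sham 1 to 3. It is among the 5 genes most like Ramp1 over the 6 arrays (Pearson r = 0.992), so its match is no separate evidence. The median of the endothelial list did not follow that order on sham 1 to 3, at 0.01, -0.05 and 0.02.

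Markers of cortical projection neurons stood the other way. Of 9 listed genes 8 were measured, and 7 were higher in ICH, 5 of them without overlap, beside 11.0% of all rows, and none called. The list's median relative to the sham mean was 0.91, 1.25 and 0.80 on ICH 1 to 3, against 0.31, -0.35 and 0.14 on sham 1 to 3, and its summed signal ran from 7.43 to 8.73 in ICH and from 3.15 to 5.31 in sham. Neurod6, a transcription factor gene of excitatory neurons, differed by 2.04 ± 0.16 and the vesicular glutamate transporter gene Slc17a7 by 1.55 ± 0.30 (adjusted p = 0.0821 and 0.253 in limma). The part of tissue make-up in the values of Ramp1 and the other members was not tested.

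Ramp2, the partner that gives Calcrl its affinity for adrenomedullin, was the only measured member higher on every ICH array. It read 0.73, 0.97 and 0.48 on ICH 1 to 3, against 0.31, 0.33 and 0.29 on sham 1 to 3. The sham values were almost equal (SD 0.02), and even ICH 3 exceeded them by 0.15. The difference of 0.42 ± 0.16, or 1.34-fold higher in ICH, had an adjusted p of 0.329 in limma. Ramp2 is known from endothelium. Of the endothelial markers 10 were measured out of 12 and 8 were lower in ICH, with a median difference of -0.39 that became 0.04 with spike-in centring. All ICH arrays were below all sham arrays for 5 of the 10, beside 16.5% of all rows. The list's median was -0.37, -0.44 and -0.25 on ICH 1 to 3 and 0.01, -0.05 and 0.02 on sham 1 to 3. The summed signal of that list was 7.25 to 7.80 in ICH and 9.35 to 9.88 in sham. The receptor gene Kdr differed by -0.60 ± 0.21 and the adhesion molecule gene Pecam1 by -0.58 ± 0.22 (adjusted p = 0.314 and 0.324 in limma). The part of endothelial cells in the Ramp2 values was not tested.

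Ramp3, which also turns Calcrl into an adrenomedullin receptor, did not separate the groups. It read -0.15, -2.01 and 0.34 on ICH 1 to 3, against -2.22, 0.33 and 0.16 on sham 1 to 3. The low arrays were ICH 2 and sham 1, which come from different groups, and the other 4 lay close together. The difference was -0.03 ± 0.89 with a 95% interval of -2.20 to 2.13, an interval that reaches far to both sides of 0 (adjusted p = 0.989 in limma). The probe is printed 10 times on each array, and each value is the mean of those spots.

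The arrays low for Ramp3 were those on which the median of thalamic neuron markers was lowest. Of 9 listed genes, 7 were measured, and Tcf7l2 and Rora had no matched probe. The list's median relative to the sham mean was -0.11, -1.43 and 0.48 on ICH 1 to 3 and -0.94, 0.42 and 0.49 on sham 1 to 3, where Ramp3 stood at 0.42, -1.43 and 0.92 and at -1.65, 0.91 and 0.74. Summed signals of the list ran from 5.25 to 10.2 in ICH and from 5.73 to 10.3 in sham. The transcription factor gene Gbx2 differed by -1.39 ± 0.98 and the calcium-binding protein gene Calb2 by -0.79 ± 0.38 (adjusted p = 0.506 and 0.386 in limma). Not every marker followed the list's median. Gbx2 and Calb2 were also low on ICH 1, at -1.52 and -0.88, and Lhx2 was highest on ICH 2, at 0.58. Slc17a6, Lhx9, Lef1 and Prkcd were lowest on ICH 2 and sham 1. The gene most like Ramp3 over the 6 arrays was the homeobox gene Shox2 (Pearson r = 0.996), at 0.80, -3.12 and 1.44 in ICH and -2.996, 1.52 and 1.47 in sham. Zg16b, the potassium channel gene Kcnc2, Plekhg1 and Garin3 came next, all with r of 0.992 to 0.996. Likeness to Ramp3 was looked up after its values were seen, and whether dissection sets its pattern was not tested.

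**Figure D2:**
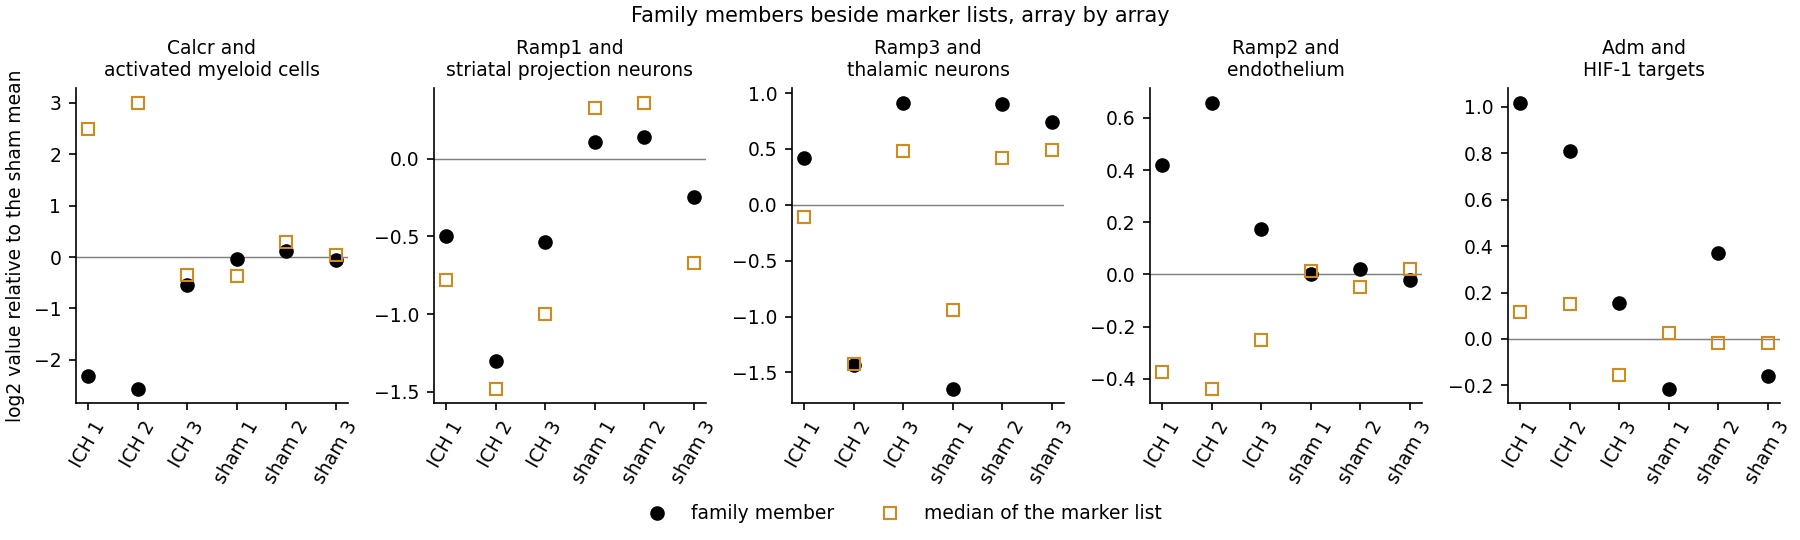
The values of 5 members (filled circles) and the median of a marker list (open squares) on each array, as log2 values relative to the sham mean, with the ICH arrays left of the sham arrays and an axis of its own per panel. Ramp3 and the thalamic list are both low on ICH 2 and sham 1, Ramp1 and the striatal list are both lowest on ICH 2, and Ramp2 is above 0 on the ICH arrays where the endothelial list is below it with this centring.

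Of the peptide genes, Adm, which encodes adrenomedullin and is a known target of hypoxia-inducible factors, was high on 2 ICH arrays. It read -0.38, -0.59 and -1.24 on ICH 1 to 3, against -1.61, -1.02 and -1.55 on sham 1 to 3. ICH 3 lay between sham 2 and the other sham arrays, so the groups overlapped. The difference was 0.66 ± 0.28, or 1.58-fold higher in ICH (adjusted p = 0.348 in limma, 95% interval -0.02 to 1.35). Without ICH 3 it was 0.91.

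Other HIF-1 targets stood on both sides of 0. Of 11 measured out of 12, 3 were higher and 8 lower, and 0 were called. The median difference was -0.09 beside -0.04 over all rows (0.35 beside 0.39 with spike-in centring). All 3 higher genes had every ICH array above every sham array, beside 11.0% of all rows. The reverse held for 2 of the lower genes, beside 16.5% of all rows. Among the higher genes, P4ha1 differed by 0.38 ± 0.20 (adjusted p = 0.405 in limma). Vegfa, the endothelial growth factor gene, differed by -0.53 ± 0.20 (adjusted p = 0.327) and the glycolysis gene Pgk1 by -0.55 ± 0.34 (adjusted p = 0.456). The list's median was 0.12, 0.15 and -0.15 on ICH 1 to 3 and 0.03, -0.02 and -0.02 on sham 1 to 3.

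Activated myeloid markers were high on the same ICH arrays on which Adm was high and Calcr lowest. All 10 listed genes were measured and higher in ICH on average, 2 of them without overlap, beside 11.0% of all rows, and none called. Their median was 2.49, 3.01 and -0.36 on ICH 1 to 3, against -0.38, 0.29 and 0.03 on sham 1 to 3, and their summed signal ran from 1.90 to 9.75 in ICH and from 1.49 to 2.30 in sham. The chemokine gene Ccl2 differed by 3.099 ± 1.89 and the scavenger receptor gene Msr1 by 2.75 ± 1.35 (adjusted p = 0.456 and 0.388 in limma). The part of these cells in the Adm and Calcr values was not tested.

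Calca makes calcitonin or CGRP by splicing, and its 2 probes are named for different RefSeq transcripts. The brighter, A_64_P018766, read -2.43, -3.33 and -3.097 on ICH 1 to 3, against -2.22, -3.51 and -2.46 on sham 1 to 3. Its groups overlapped throughout (-0.22 ± 0.40, adjusted p = 0.798 in limma, 95% interval -1.20 to 0.77), with sham 2 the lowest array. The dim probe, A_64_P018761, read -5.72, -5.41 and -8.18 in ICH, not well above background on ICH 3, against -7.32, -7.77 and -7.61 in sham. ICH 1 and ICH 2 were above every sham array, and ICH 3 has no rank, so no mean difference is given. Which product each probe detects was not determined here.

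Calcb, the second CGRP gene, was set apart by 1 array. It read -2.24, -0.18 and -2.15 on ICH 1 to 3, against -1.94, -1.83 and -1.84 on sham 1 to 3. ICH 2 was high, while ICH 1 and ICH 3 lay below all sham arrays. The difference of 0.34 ± 0.56 (adjusted p = 0.766 in limma, 95% interval -1.01 to 1.70) became -0.33 ± 0.10 without ICH 2, with an adjusted p of 0.235. Calca and Calcb encode closely related transcripts, and the specificity of their probes was not tested.

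**Figure D3:**
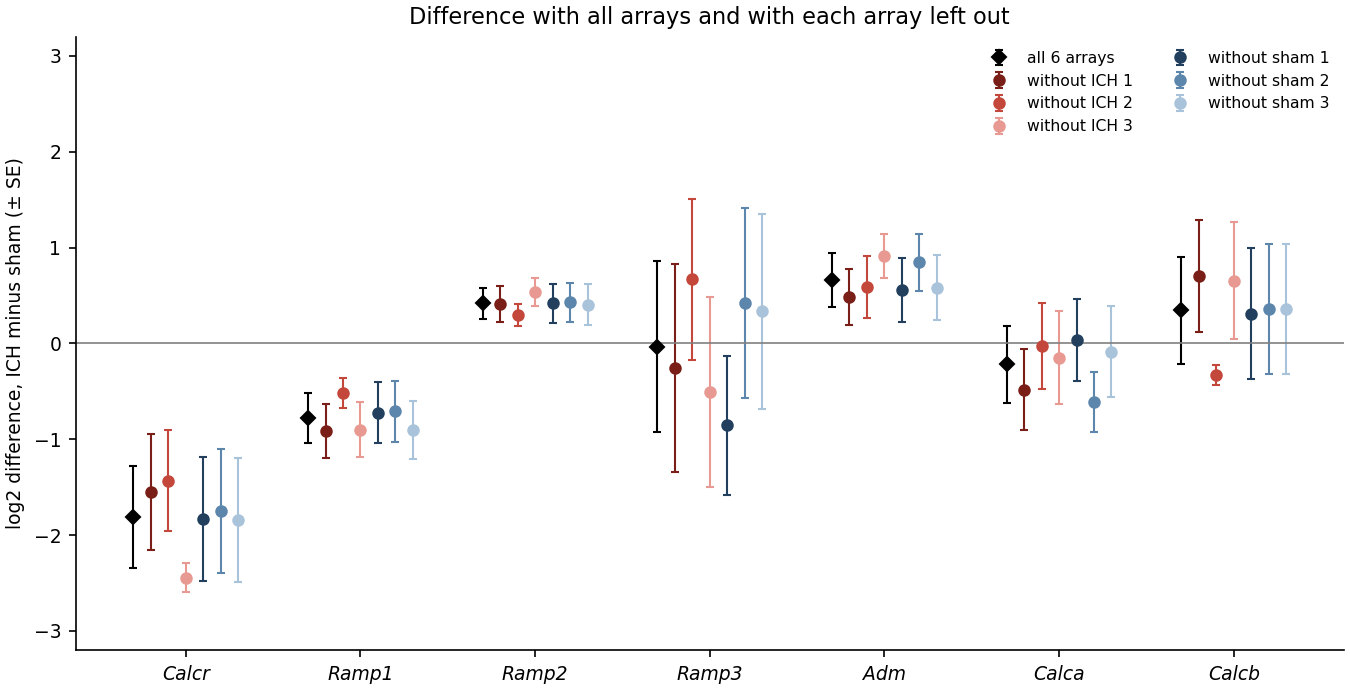
Log2 difference, ICH minus sham, for the 7 measured genes, with all 6 arrays (diamonds) and with each array left out (circles); the bars are SE from limma. Calcr and Ramp1 stay below 0 and Ramp2 and Adm above it in every case shown, while Ramp3, Calca and Calcb cross 0. For Calcr, Ramp1 and Ramp2 this was fixed in advance, as their groups did not overlap.

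Within the row of the slide that held ICH 1 and all sham arrays, the values were -2.32 for Calcr, -0.50 for Ramp1, 0.42 for Ramp2, 0.42 for Ramp3, 1.02 for Adm, 0.31 for Calca and -0.37 for Calcb. ICH 2 and ICH 3 lay in another row with no sham array, so a row effect on them and the bleed cannot be told apart.

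Genes around the family were read from 5 lists with 57 of 67 genes measured, 0 of them called and 9 (15.8%) at an unadjusted p under 0.05, beside 14.7% of all rows. All ICH arrays were below all sham arrays for 14 of the 57 (24.6%, beside 16.5% of all rows) and above them for 4 (7.02%, beside 11.0%). Among peptide partners and processing enzymes, 8 of 10 were measured, 3 higher and 5 lower, with a median of -0.08 that became 0.35 with spike-in centring and 0.03 without ICH 2. Dpp4, a peptidase that trims peptide hormones, differed by -1.27 ± 0.29 and Mme, neprilysin, which degrades CGRP and adrenomedullin, by -0.96 ± 0.28 (adjusted p = 0.301 for both in limma), both without overlap. Adm2, the gene of the related peptide intermedin, stood at -0.47 ± 0.24, the adrenomedullin scavenger receptor gene Ackr3 at 0.40 ± 0.33, the amidating enzyme gene Pam at 0.04 ± 0.21 and the CGRP receptor component gene Crcp at -0.04 ± 0.13.

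Other receptors of class B, the class to which Calcr and Calcrl belong, were mostly lower, 8 of 10 measured. Their median of -0.33 was -0.16 without ICH 2 and 0.11 with spike-in centring. All ICH arrays were below all sham arrays for 1 of the 10, beside 16.5% of all rows. The parathyroid hormone receptor genes Pth2r and Pth1r stood at -0.67 ± 0.45 and -0.37 ± 0.17, and Crhr2, a receptor for urocortins, at -0.58 ± 0.39. Glp1r, Glp2r and Ghrhr were not well above background on enough arrays. Ligands of these receptors had the lowest median of the 5 lists, -0.38, which became 0.06 with spike-in centring. Of 9 measured, 7 were lower, 3 of them without overlap, beside 16.5% of all rows. Ucn3, a urocortin of the hypothalamus and amygdala, stood at -1.96, -3.17 and -0.74 on ICH 1 to 3 relative to the sham mean, against 0.06, -0.71 and 0.65 on sham 1 to 3 (adjusted p = 0.305 in limma). Ghrh, the hypothalamic releasing hormone for growth hormone, stood at -1.90, -2.69 and -1.13 in ICH and -0.20, 0.91 and -0.71 in sham (adjusted p = 0.301 in limma).

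Signalling below the receptors was represented by 19 of 20 genes of the stimulatory G protein and cAMP pathway, 7 higher and 12 lower, with a median of -0.19 that became 0.24 with spike-in centring. Of these, 6 were without overlap below sham, beside 16.5% of all rows. The transcription factor gene Crem (0.27 ± 0.14) was the 1 without overlap above it, beside 11.0% of all rows. The G protein subunit gene Gnas stood at -0.37 ± 0.15, the striatal cyclase gene Adcy5 at -0.91 ± 0.24 and the kinase subunit gene Prkar2b at -0.46 ± 0.19 (adjusted p = 0.342, 0.301 and 0.346 in limma).

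**Figure D4:**
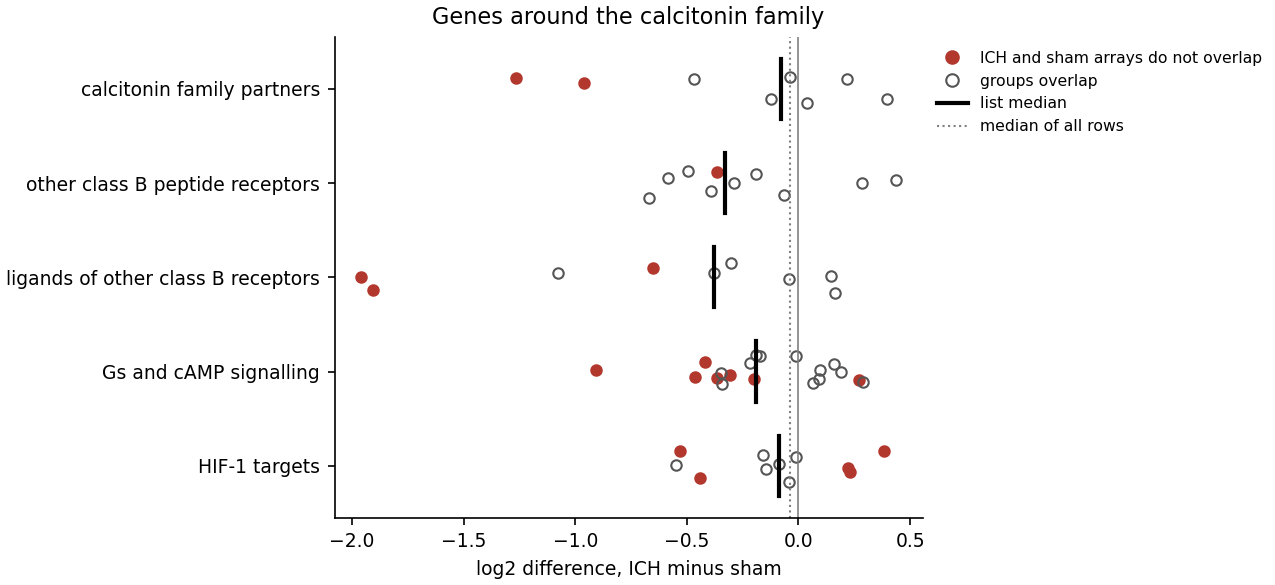
Log2 difference, ICH minus sham, for each measured gene of 5 lists around the family; filled points have no overlap between the ICH and sham arrays, thick bars are list medians and the dotted line is the median of all rows, -0.04. The lowest points are Ucn3 and Ghrh among the ligands and Dpp4 among the partners.

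Hypothalamic and preoptic markers, from a region where calcitonin receptors are known, were lower too. Of 14 listed, 11 were measured, Otp and Esr1 were too dim and Oxt had no matched probe. In ICH 10 of the 11 were lower, 4 without overlap, beside 16.5% of all rows, and the list's median was -0.54, -1.86 and -0.48 on ICH 1 to 3 and -0.35, 0.21 and 0.20 on sham 1 to 3. The neuropeptide gene Npvf stood at -2.91, -3.28 and -1.76 in ICH and -0.58, -0.58 and 1.16 in sham, and the transcription factor gene Sim1 differed by -1.50 ± 0.69 (adjusted p = 0.301 and 0.367 in limma). Summed signals of the list were 6.80 to 14.6 in ICH and 13.0 to 20.5 in sham. The part of this region in the Calcr values was not tested.

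The genes most like Calcr over the 6 arrays were Kdm8 (Pearson r = 0.997), the calcium channel subunit gene Cacnb4 (0.996), the methionine sulfoxide reductase gene Msrb2 (0.995), the pericyte marker Rgs5 (0.993) and Bcas1 (0.992), a gene of oligodendrocytes. They were taken from 5966 genes with an SD of at least 0.3, of which 111 had an r over 0.95, and the r serves only to rank. Their differences were smaller than that of Calcr, from -0.61 for Rgs5 to -0.47 for Kdm8. Rgs5 stood at -0.85, -0.78 and -0.21 on ICH 1 to 3 and at 0.00, 0.02 and -0.02 on sham 1 to 3. Mural cell markers as a list, 9 of 9 measured and 7 lower, had a median difference of -0.28 (0.16 with spike-in centring) and medians of -0.17, -0.26 and -0.21 on ICH 1 to 3 and 0.10, 0.00 and -0.05 on sham 1 to 3. The actin gene Acta2 of smooth muscle differed by -0.76 ± 0.23 and the receptor gene Notch3 by 0.73 ± 0.15 (adjusted p = 0.301 and 0.275 in limma). Within the family, r with Calcr was 0.84 for Ramp1, 0.31 for Ramp3, 0.09 for Calca, -0.51 for Calcb, -0.87 for Adm and -0.97 for Ramp2, over the same arrays and with the group difference included. Ramp1 stood behind 1356 of 12963 named genes in that order, Calcr itself counted.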

How the data were processed

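TRIzol extraction and Cy3 labelling after linear amplification are described in the labels' protocols. Agilent Feature Extraction 11.5.1.1 made the deposited intensity values, background-subtracted within each array, per the file headers, while the submitters' processing notes name version 10.7. Other flags per spot (well above background, saturated, not uniform) are as deposited. The deposited log2 table equals the values used here, within 0.001 and up to a constant per array, for 98.5% to 99.3% of probes; how it was centred is not stated in those sources.

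Control spots and marked spots (1 to 9 per array) were left out, the 75th percentile of log2 signal was subtracted per array, and spots of a probe were averaged. Probes well above background (in at least 0.5 of their spots) on at least 3 of 6 arrays were kept, and 4 with a missing value dropped. Probes were named through the RefSeq table of GRCr8 (18355 with 1 symbol, 12012 with none), and the brightest probe per symbol was used. limma 3.58.1 in R 4.3.3 (lmFit, eBayes, 6.12 degrees of freedom, Benjamini-Hochberg over 22179 rows) gave differences and p-values. The fit was also run on simulated data with independent noise and no array effects, and the outcome is not reported here. Figures used matplotlib 3.10.9.

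The members, lists and tests were chosen with earlier results of these data known. Named were all members, for each list described at least the 2 genes with the largest difference, and the 5 genes most like Calcr. Further list genes, the genes most like Ramp3 and, as a gene like Ramp1, Pecam1 were named after their values were seen. Some genes that fall under these rules are not reported here. The number of arrays limits the precision.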

Additional observations from a re-analysis of the deposited data

How the results depend on the processing

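The differences of Calcr, Ramp1, Ramp2 and Adm kept their sign under all 19 alternatives tried. These changed the background correction, the centring, the source of values, the filter, the choice of probe, the variance model, the blocking or the arrays. Leaving out arrays could not turn the sign of Calcr, Ramp1 and Ramp2, whose groups did not overlap. The filter, the variance model and a block for replicate number left the mean differences of Calcr, Ramp1, Ramp2 and Adm as they were. The choice of probe could not change those of Calcr, Ramp2 and Adm, which have 1 probe each. The deposited log2 table holds nearly the same values up to a constant per array. With the slide row as a block, each difference is that of ICH 1 alone from the sham mean. The 19 alternatives are therefore not 19 independent checks. Calcr chose the family, so its steady sign supports nothing. Calcr ran from -2.44 to -1.37, Ramp1 from -0.92 to -0.34, Ramp2 from 0.30 to 0.85 and Adm from 0.48 to 1.095. Under every alternative, 0 of the 6 other members and 0 of the genes of the 5 lists around the family were called. Of 87 measured marker genes 0 were called, but 1, Neurod6, with normexp correction, spike-in centring or an intensity trend and robust variance, and 0 to 4 with 1 array left out, the 4 without ICH 3 being Neurod6, Spp1, Msr1 and Cd14. Centring on spike-in probes moved the median of all rows from -0.04 to 0.39 and gave -1.37 for Calcr, -0.34 for Ramp1, 0.85 for Ramp2 and 1.095 for Adm. The sign of Calca turned to 0.21 with spike-in centring, 0.46 with the mean of both probes, the dim one included, 0.31 with the slide row as a block and 0.23 without ICH 2 and sham 1 together (an alternative added after seeing the data), and with 1 array left out it ran from -0.61 to 0.04, the last without sham 1. Calcb was -0.37 with the row block and -0.36 without ICH 2 and sham 1, and ran from -0.33 to 0.70 with 1 array left out. Ramp3 was 0.40 with spike-in centring and 0.42 with the row block, and ran from -0.85 (without sham 1) to 0.67 (without ICH 2), with 0.42 without sham 2 and 0.34 without sham 3. The cause of these turns was not tested.

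Rows called over the whole table were 0, but 3 with normexp correction, 33 with spike-in centring, 2 with the filter on all arrays, 3 with an intensity trend and robust variance, and 0 to 36 with 1 array left out, the highest without ICH 3 and 8 without ICH 2. List medians moved by more than the spread between arrays in 32 of their 285 recomputed values. With spike-in centring 10 of the 15 list medians turned above 0, among them that of the thalamic markers. The median of the HIF-1 targets turned to 0.12 with the slide row as a block, which sets ICH 1 alone against the sham arrays. No pairing by replicate number was seen, though deviations from means of 3 arrays cannot exclude one. Same-numbered ICH and sham arrays had deviations correlated at -0.19, -0.01 and 0.07, and differently numbered ones from -0.13 to 0.17. With the replicate number as a block 0 rows were called. Normexp used median spot signals, and Calcrl could not be fitted under the filters.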
